A study of Caenorhabditis elegans with 36 samples.

Results

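Small RNAs of wild-type Caenorhabditis elegans were compared, gene by gene, between adults raised at 25°C and adults raised at 20°C. The comparison used 6 of the 36 samples of the series, namely the 3 small RNA libraries of wild-type (N2) animals at each temperature, and covered every gene of the count tables. Of 45904 gene names, 16025 had enough counts to be tested. The series placed wild-type animals beside mut-16(pk710) mutants at the same 2 temperatures and also profiled mRNA and open chromatin. For every RNA group, synchronized first-stage larvae were grown on plates to adulthood, and RNA was taken from whole animals after about 68 h at 20°C or about 48 h at 25°C. Temperature and harvest time therefore changed together and cannot be told apart. RNA of 18 to 30 nt was cut from a gel, so the libraries hold a mixture of siRNAs, miRNAs, piRNAs and fragments of longer RNAs.

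In C. elegans most small RNAs that match genes are secondary siRNAs, which RNA-dependent RNA polymerases copy from a target transcript. Argonaute proteins then carry them back to matching RNAs, where some silence the target and others license its expression in the germline. The scaffold protein MUT-16 assembles the perinuclear foci of germ cells in which many of these siRNAs are amplified, whereas miRNAs and piRNAs are transcribed from genes of their own.

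The wild-type libraries held 9579543 to 11401866 counts at 20°C and 4760502 to 19060841 at 25°C. Levels are given in RPM, a gene's counts per 1000000 counts of its library, always in the order of replicates 1, 2 and 3. Over 7800 genes with at least 10 RPM, the median absolute log2 ratio of 2 libraries was 0.0745 to 0.109 within 20°C, 0.103 to 0.239 within 25°C and 0.293 to 0.368 between the temperatures. Replicate 3 at 25°C was the shallowest library and lay farthest from its own group, at 0.186 and 0.239. The study calls the replicates biological, but neither it nor the labels say whether they came from separate cultures, so the p-values measure the spread between these samples. The counts carry neither strand nor read length. Genes that overlap another gene, on either strand, thus cannot be told apart from it, and the read-sharing of near-identical gene copies leaves their values uncertain.

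Small RNAs changed in both directions, at protein-coding genes, pseudogenes and non-coding genes alike. With the quasi-likelihood test of edgeR and Benjamini-Hochberg adjusted p-values, 3238 of the 16025 genes had more small RNAs at 25°C (20.2%) and 2729 had fewer (17.0%), 37.2% in either direction. Under the same test 7348 genes had an unadjusted p under 0.05. A change of at least 1 on the log2 scale was found for 1646 of the higher genes (10.3% of those tested) and for 1076 of the lower genes (6.71%). The median log2 fold change was 1.015 among the higher genes, -0.721 among the lower genes and 0.0441 over all genes tested. The split between directions depended on scaling. Higher genes made up 54.3% of the called genes with TMM scaling and 41.4% with scaling to total counts, which gave 2603 higher and 3677 lower genes and a median of -0.055. Without replicate 3 at 25°C the counts were 3569 and 3403.

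**Figure D1:**
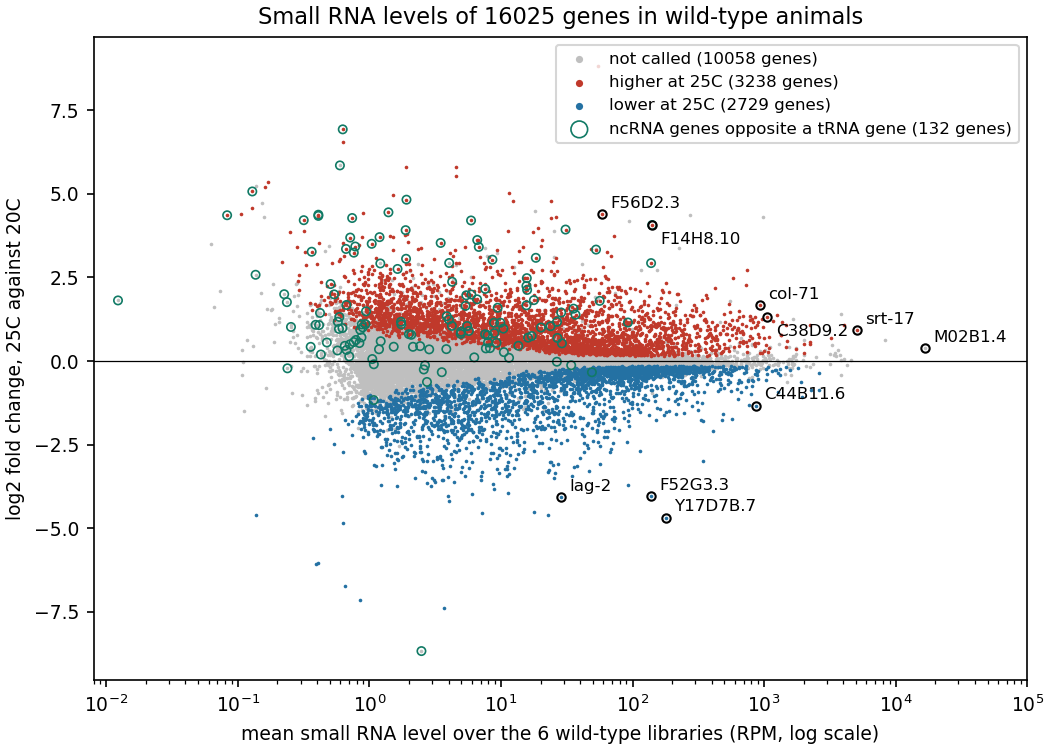
Each point is a tested gene, with its mean level over the 6 wild-type libraries in RPM on a log axis and its log2 fold change at 25°C against 20°C; red points are the 3238 higher genes, blue points the 2729 lower genes, and green circles the 132 tested ncRNA genes that lie opposite a tRNA gene. The green circles sit mostly above 0, and the spread of the fold changes narrows toward abundant genes.

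The share of genes called in each direction varied with the level. Of 1090 genes under 1 RPM, 16.4% were higher and 5.05% lower. Of 7135 genes between 1 and 10 RPM, 16.3% were higher and 11.4% lower, and of 5536 genes between 10 and 100 RPM the shares were 24.9% and 21.5%. The order was turned only for the 2156 genes between 100 and 1000 RPM, of which 22.9% were higher and 30.2% lower. Among 108 genes above 1000 RPM, 22 were higher and 19 lower. These shares are from TMM scaling, and the balance of directions over all genes turned with scaling to total counts. The 5 genes with the most small RNAs were M02B1.4, pole-2, srt-17, Y39E4B.14 and W09C5.12, and of these only srt-17 passed the test. srt-17, a chemoreceptor gene on chromosome V, held 3448, 3494 and 4136 RPM at 20°C and 7495, 7673 and 4263 RPM at 25°C. The groups did not overlap, although replicate 3 at 25°C exceeded the highest 20°C library only slightly. Its log2 fold change was 0.92 (SE 0.31, adjusted p = 0.0105, edgeR), and the call was lost without replicate 1 at 25°C. M02B1.4 held 18988, 13864 and 13045 RPM at 20°C and 26563, 16909 and 11764 RPM at 25°C, so its groups overlapped. For pole-2, a DNA polymerase epsilon subunit, the log2 value was 0.64 (adjusted p = 0.159, edgeR), and without replicate 3 at 25°C it was 0.93 (adjusted p = 0.00799).

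Non-coding RNA genes that lie opposite tRNA genes formed the most one-sided of the groups described here. These genes were singled out after their values were seen, because several of the largest increases proved to face a tRNA, so their counts are a description without a test. Of 7717 annotated genes of the class other ncRNA, 351 overlap a nuclear tRNA gene of the RefSeq annotation, which has 612, and all 132 of those tested lie on the strand opposite to the tRNA. Among the 132, 63 passed the test with more small RNAs at 25°C (47.7%, against 20.2% of all genes), 0 passed with fewer, and the median log2 fold change was 1.12. At an unadjusted p under 0.05 the counts were 72 higher and 0 lower, and DESeq2 called 68 higher and 0 lower of 131. Under the alternatives 0 to 3 were lower, the most with no filter on low counts (78 higher and 3 lower of 280). Since the deposited counts do not give the strand of the reads, fragments of the tRNA itself and RNA from the opposite strand cannot be told apart. In whole animals, a change in the number of cells of a type and a change of RNA per cell likewise cannot be told apart, here and in every comparison that follows. The 5 loci F14H8.10, ZK678.11, F49C5.15, C28G1.8 and ZK783.8 were chosen after their values were seen, as examples over 4 chromosomes, and are printed from the RefSeq genome (WBcel235), 5′ to 3′ on the strand of the ncRNA gene, with the bases over the tRNA in capitals. F14H8.10 lies at chrV:15013019-15013112 on the plus strand over a tRNA-Val gene, ZK678.11 at chrX:15742034-15742154 on the minus strand over tRNA-Leu, F49C5.15 at chrII:12541920-12542018 on the plus strand over tRNA-Leu, C28G1.8 at chrX:8836068-8836195 on the minus strand over tRNA-Glu, and ZK783.8 at chrIII:7642148-7642231 on the plus strand over tRNA-Glu.
F14H8.10: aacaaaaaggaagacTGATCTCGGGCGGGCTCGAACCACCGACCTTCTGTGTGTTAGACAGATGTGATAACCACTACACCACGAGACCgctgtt
ZK678.11: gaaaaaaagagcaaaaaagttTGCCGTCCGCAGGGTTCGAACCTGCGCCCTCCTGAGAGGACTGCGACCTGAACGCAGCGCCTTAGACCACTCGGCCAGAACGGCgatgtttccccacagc
F49C5.15: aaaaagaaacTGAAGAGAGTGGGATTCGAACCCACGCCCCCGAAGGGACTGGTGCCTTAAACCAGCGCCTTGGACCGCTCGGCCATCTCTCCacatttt
C28G1.8: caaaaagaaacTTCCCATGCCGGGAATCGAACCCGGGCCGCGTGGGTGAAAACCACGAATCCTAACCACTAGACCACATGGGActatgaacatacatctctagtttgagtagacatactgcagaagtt
ZK783.8: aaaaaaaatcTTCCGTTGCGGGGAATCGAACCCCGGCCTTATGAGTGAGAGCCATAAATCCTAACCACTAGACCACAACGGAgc

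F14H8.10 held 15, 16 and 21.4 RPM at 20°C and 380, 315 and 99.4 RPM at 25°C. All 3 libraries at 25°C were higher, with replicate 3 the lowest of them, and the log2 fold change was 4.07 (SE 1.02, adjusted p = 0.000559, edgeR). ZK678.11, at 0.702, 0.789 and 0.522 RPM, reached 6.72 to 15.7 RPM, a log2 fold change of 4.20 (SE 0.75, adjusted p = 9.05e-07). C28G1.8 ran in another order, since its 47, 16.7 and 36 RPM at 20°C became 128, 188 and 416 RPM with replicate 3 the highest (log2 fold change 2.93, SE 0.85). The groups of the remaining pair also stood apart, with 3.93 (SE 0.91) for F49C5.15 and 3.33 (SE 0.78) for ZK783.8 on the log2 scale. Larger changes were found at scarcer loci. F39B1.5, over a tRNA-Val gene on chromosome X, was at 0 RPM in all 3 libraries at 20°C and at a mean of 1.25 RPM at 25°C (adjusted p = 0.000266, edgeR). T10B10.14, over tRNA-Gly on the same chromosome, went from a mean of 0.148 RPM to 3.68 RPM (log2 fold change 4.82, SE 1.22).

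Summed over the 351 genes, the level was 776.9, 704.4 and 662.8 RPM at 20°C and 2108, 1846 and 1798 RPM at 25°C, 2.68 times as high. The groups were far apart relative to their spread, with 715 ± 57.7 RPM at 20°C and 1918 ± 167 RPM at 25°C (SD, n = 3). The increase was found over tRNA genes of many specificities, including 8 of 11 genes tested over tRNA-Leu, 8 of 13 over tRNA-Gly, 6 of 11 over tRNA-Ser and 5 of 8 over tRNA-Ala, but only 2 of 11 over tRNA-Lys and 3 of 14 over tRNA-Arg. Of 255 other ncRNA genes tested that overlap no tRNA, 54 were higher and 28 lower. Summed over all 7366 genes of this kind, tested or not, the level was 4003, 4325 and 4169 RPM at 20°C. At 25°C it was 4197, 4016 and 3852 RPM, with overlapping groups. In mut-16 mutants the same 351 genes summed to 2478, 3452 and 2368 RPM at 20°C and 5392, 5060 and 4512 RPM at 25°C, above wild-type at both temperatures.

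The deepest losses of small RNA among ncRNA genes lay elsewhere. F54A3.10, inside cbs-2 but on the opposite strand, had 8.03, 7.81 and 6.05 RPM at 20°C and 0, 0.0908 and 0 RPM at 25°C (80, 89 and 58 counts against 0, 1 and 0 counts). The ratio was 256, with a 95% counting interval of 45.4 to 10136 that covers counting error only, and the adjusted p was 5.82e-08 (edgeR). K07H8.15 had 6.02, 6.14 and 4.07 RPM against 0.157, 0.454 and 0.84 RPM, a log2 fold change of -3.73 (SE 0.92). Both are printed because they are the most reduced of their class, F54A3.10 from chrII:2220483-2220632 and K07H8.15 from chrIV:8277056-8277166, each on the plus strand of WBcel235.
F54A3.10: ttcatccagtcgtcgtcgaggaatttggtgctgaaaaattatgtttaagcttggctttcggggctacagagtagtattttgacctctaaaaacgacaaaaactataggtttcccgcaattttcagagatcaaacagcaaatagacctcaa
K07H8.15: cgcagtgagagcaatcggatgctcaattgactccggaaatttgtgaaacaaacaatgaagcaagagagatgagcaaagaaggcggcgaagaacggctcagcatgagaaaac

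Groups without overlap, with or without a call, were found for 20.9% of all genes tested in the higher and 27.5% in the lower direction. When only called genes that reached 10 RPM in 1 temperature and whose groups did not overlap were counted, 1740 were higher (10.9% of those tested) and 1963 lower (12.2%). The 10 largest increases included F56D2.3, an uncharacterized protein-coding gene on chromosome III, which held 5.52, 5.98 and 5.64 RPM at 20°C and 112, 115 and 109 RPM at 25°C. The replicates were tight in both groups, and the log2 fold change was 4.39 (SE 0.70, adjusted p = 5.29e-08, edgeR). dhcr-7, named for a sterol reductase and overlapped on the other strand by the ribosomal protein gene rpl-2, went from 0.988, 0.446 and 1.38 RPM to 24, 23.5 and 23.3 RPM, a log2 fold change of 4.77 (SE 0.83, adjusted p = 4.72e-07). sulp-6, a sulfate permease family anion transporter, went from 2.21, 2.32 and 2.82 RPM to 37.4, 35.8 and 33.3 RPM, a log2 fold change of 3.97 (SE 0.56). C45G7.13, which shares its strand with the cadherin gene cdh-10, had 1.21, 2.37 and 1.77 RPM at 20°C and 50.8, 48.2 and 40.8 RPM at 25°C (4.79, SE 0.71). Y76B12C.4 stood at 4.28 (SE 0.62) on the log2 scale.

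Some of the largest increases were uneven among the libraries at 25°C. T06A1.6, a pseudogene, held 0, 0 and 0.843 RPM at 20°C and 226, 94.3 and 4.55 RPM at 25°C (log2 fold change 8.82, SE 2.99, adjusted p = 0.0121, edgeR), and it no longer passed without replicate 2 or replicate 3 at 20°C, where the adjusted p reached 0.0663. C45G9.10 had 1.73, 1.82 and 64 RPM at 25°C against 0.418 to 0.789 RPM at 20°C, and without replicate 3 at 25°C its log2 fold change went from 5.02 to 1.57 (adjusted p = 0.0904). For elk-2, replicate 3 at 25°C had 15.3 RPM beside 65.5 and 67.6 RPM in the others, all above the highest 20°C value of 3.67 RPM (log2 fold change 4.32, SE 1.10).

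The replicates of the largest decreases lay close together. Y17D7B.7, a pseudogene on chromosome V, had 358, 329 and 350 RPM at 20°C and 11.4, 12.9 and 13.9 RPM at 25°C, a 25.7-fold decrease (log2 fold change -4.68, SE 0.83, adjusted p = 8.46e-07, edgeR). F52G3.3, also a pseudogene, went from 260, 264 and 264 RPM to 13.2, 13.4 and 20 RPM (-4.04, SE 0.51, adjusted p = 2.86e-11). lag-2, which encodes the Notch ligand that the distal tip cell presents to germline stem cells, had 49.4, 63 and 51.7 RPM against 2.94, 3.18 and 2.94 RPM. Its log2 fold change was -4.06 (SE 0.57, adjusted p = 8.84e-10). nipi-4, first described for its part in the epidermal response to fungal infection, went from 154, 180 and 180 RPM to 13, 11.3 and 12.6 RPM (-3.69, SE 0.47). tag-196, a cathepsin-like cysteine protease gene, had 29, 36.1 and 38.3 RPM at 20°C and 0.892, 2.09 and 1.26 RPM at 25°C (-4.53, SE 0.70). The other 5 of these 10 genes, B0393.8, Y55F3C.10, F14F7.7, M162.5 and K01A6.6, had log2 fold changes between -4.61 and -3.84. At the edge of these 2 sets of 10, nipi-4 at -3.69 was the last gene included and clec-143 at -3.69 the first left out, and above 0 sulp-6 at 3.97 was followed by F49C5.15 at 3.93.

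**Figure D2:**
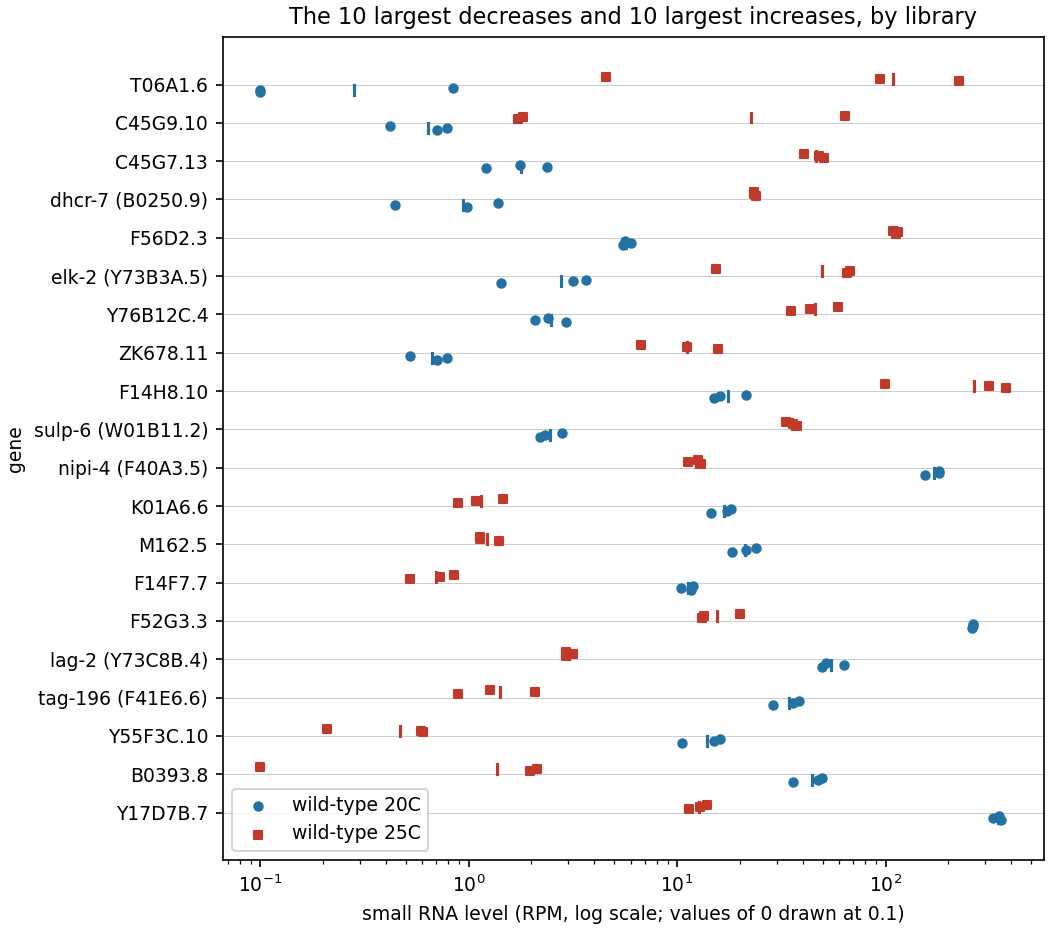
Each symbol is the small RNA level of a gene in 1 wild-type library, in RPM on a log axis with values of 0 drawn at 0.1; blue circles are 20°C, red squares 25°C, and short vertical lines are group means. The groups of the 10 largest increases (upper rows) and 10 largest decreases (lower rows) do not overlap, as the rule that chose them required. T06A1.6 and C45G9.10 show the widest spread at 25°C.

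Gene groups differed in how often and in which direction their members changed. The counts stand against 20.2% higher and 17.0% lower over all genes. Sperm genes leaned upward. Of 83 sperm genes, which encode the major sperm protein that drives nematode sperm crawling, its smaller relatives and factors of spermatogenesis, 71 were tested, 32 were higher (45.1%) and 2 lower, with a median log2 fold change of 1.18. Their summed level was 552.9 to 580.1 RPM at 20°C and 742.5 to 794.7 RPM at 25°C. spe-47, a major sperm protein domain gene of spermiogenesis that was chosen after its values were seen, held 30.2, 41.3 and 41.6 RPM at 20°C and 127, 127 and 106 RPM at 25°C (log2 fold change 1.78, SE 0.30). spe-6, a casein kinase gene needed for spermatogenesis and chosen in the same way, went from 6.42, 7.81 and 5.43 RPM to 29.4, 29.1 and 30.2 RPM (2.26, SE 0.37). In both, every library at 25°C lay above every library at 20°C. By the fixed rule the largest sperm gene increases were ssp-9, ssq-3 and msp-40, all of them under 3 RPM, and for ssp-9 the 2 counts at 20°C gave a ratio of 21.3 (95% counting interval 5.59 to 181). msp-32, at 6.93, 6.58 and 5.77 RPM against 2.52, 1.41 and 3.64 RPM, and spe-44, a transcription factor of the spermatogenesis program, were the lower members. The mRNA of 59 of 73 sperm genes was higher at 25°C as well, with a median of 3.17, beside 22.6% higher over all genes tested in mRNA. With scaling to total counts 23 sperm genes were higher and 3 lower.

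Cuticle collagen genes, whose products are secreted by the epidermis into the exoskeleton, also leaned upward. Of 172, 55 were tested, 19 were higher (34.5%) and 3 lower, and the median was 0.46. Their summed level went from 1452, 1363 and 1245 RPM to 3906, 3527 and 2979 RPM, and without the most abundant, col-71, it went from 822.7 to 935 RPM at 20°C to 1807 to 2325 RPM at 25°C. col-71, chosen for its abundance after its values were seen and overlapped by an ncRNA gene on the other strand, had 517, 468 and 422 RPM against 1581, 1396 and 1172 RPM (log2 fold change 1.66, SE 0.44, adjusted p = 0.00118, edgeR). col-111, chosen likewise, had 268, 275 and 259 RPM against 887, 836 and 716 RPM (1.71, SE 0.30). Neither pair of groups overlapped. The largest increase by rule was that of col-162, from 13.4, 13.8 and 11.5 RPM to 83.1, 71.9 and 58.6 RPM (2.58, SE 0.44), followed by col-2 and col-40, and col-97 and col-35 were the named lower members at -1.44 and -0.90. The call of col-35 was lost in 7 of 12 alternatives (adjusted p up to 0.137 with 1 library left out, edgeR).

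Heat shock genes had calls in both directions. Of 24, 17 were tested, 5 were higher and 4 lower (29.4% and 23.5%), with a median of 0.08, and with scaling to total counts 5 were higher and 6 lower. The higher members included genes of small heat shock proteins, which hold unfolded proteins in solution. hsp-16.48 had 13.7, 14.9 and 17.4 RPM at 20°C and 72.4, 74.8 and 90.9 RPM at 25°C (log2 fold change 2.46, SE 0.47, adjusted p = 4.94e-06, edgeR). The copy of hsp-16.1 named T27E4.8 went from 5.36, 5.93 and 5.9 RPM to 34.6, 29.7 and 42.5 RPM (2.72, SE 0.43), and hsp-16.41 from 0.303, 1.06 and 0.53 RPM to 4.46, 5.39 and 3.22 RPM (2.87, SE 0.77). The rule that named these genes required groups without overlap. hsp-16 genes occur in near-identical copies, so the division among them is uncertain. sip-1, a small heat shock protein of embryos, was higher by 1.40 (SE 0.33). The lower members were chaperones that every cell uses, namely hsp-3 and hsp-4 of the endoplasmic reticulum at -0.56 and -0.34 and hsp-6 and hsp-60 of mitochondria at -0.51 and -0.30, and the call of hsp-60 was lost in 6 alternatives. The cytosolic hsp-1 (-0.27) and hsp-90 (-0.41, adjusted p = 0.0575) did not pass (edgeR).

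F-box genes leaned downward. F-box proteins recruit substrates to a ubiquitin ligase, and the family is greatly expanded in nematodes. Of 317, 245 were tested, 23 were higher (9.39%) and 90 lower (36.7%), the median was -0.36, and the summed level went from 11325, 11342 and 11336 RPM to 9684, 9697 and 9877 RPM. The spread within the groups was small beside this difference, with 11334 ± 8.87 RPM at 20°C and 9753 ± 108 RPM at 25°C (SD, n = 3). fbxa-59 had 20.6, 19.1 and 21.8 RPM at 20°C and 1.66, 1.37 and 2.44 RPM at 25°C (log2 fold change -3.44, SE 0.57, adjusted p = 1.42e-07, edgeR), and fbxb-71 and fbxb-39 were lower at -3.51 and -3.31. Of abundant members chosen after their values were seen, fbxb-97 went from 915, 1013 and 939 RPM to 576, 522 and 444 RPM (-0.79, SE 0.19), while fbxa-218 went from 519, 534 and 509 RPM to 988, 879 and 723 RPM (0.83, SE 0.24). The largest increases were those of fbxa-148, fbxa-43 and fbxa-224, between 2.02 and 2.59. Under the alternatives the lower count ranged from 18 to 98, the low end from raising the minimum count, which left fewer genes to test. The related MATH and BATH genes, which serve another ubiquitin ligase, had 11 higher and 11 lower of 59, with a decrease of bath-31 from 209, 200 and 194 RPM to 27.8, 30.5 and 27.7 RPM (-2.70, SE 0.42) and an increase of math-31 from 25.4, 33.5 and 29.9 RPM to 125, 138 and 126 RPM (2.22, SE 0.35).

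Families of receptors, signalling peptides, lectins and detoxifying enzymes had calls in both directions. Of 594 chemoreceptor genes tested out of 1309, 58 were higher (9.76%) and 77 lower (13%). The summed level of the family went from 7245 to 8037 RPM at 20°C to 9847 to 11188 RPM at 25°C, but srt-17 alone supplied 48.7% of it at 20°C, and without srt-17 the sums overlapped (3751 to 3999 RPM against 3365 to 5584 RPM). The top of that range came from srd-36, which had 1520 RPM in replicate 3 at 25°C and 10.5 to 32.6 RPM in the other 5 libraries, and did not pass (adjusted p = 0.122, edgeR). srd-70, chosen after its values were seen, held 63, 72.2 and 73.1 RPM at 20°C and 274, 297 and 247 RPM at 25°C (log2 fold change 2.08, SE 0.37). Of 197 nuclear hormone receptor genes, 27 were higher (13.7%) and 41 lower (20.8%). nhr-146, with annotated ncRNA genes on both of its strands, went from 113, 121 and 123 RPM to 16.4, 17 and 16.6 RPM (-2.73, SE 0.37, adjusted p = 3.55e-10), and nhr-244 from 3.19, 3.23 and 3.34 RPM to 37.4, 42.6 and 32.7 RPM (3.63, SE 0.59). Of 47 neuropeptide genes, 8 were higher and 11 lower. nlp-40, whose peptide is released by the intestine to time defecation, went from 24, 24.6 and 22.1 RPM to 79.1, 71.5 and 71.8 RPM (1.75, SE 0.31), and nlp-24 from 5.26 to 6.31 RPM to 0.42 to 0.454 RPM (-3.62, SE 0.66). C-type lectin genes had 16 higher and 13 lower of 102, the extremes being clec-193 (0, 0.534 and 0 RPM against 7.03, 10.3 and 9.27 RPM) and clec-143 (-3.69). UDP-glucuronosyltransferase genes, which conjugate toxins, had 10 higher and 9 lower of 61, and 7 and 10 with scaling to total counts.

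Germline and housekeeping lists had calls in both directions. Of 31 oocyte genes, 4 were higher and 5 lower, and with scaling to total counts 4 and 12. oma-2, a regulator of oocyte maturation, went from 52.3, 53.9 and 50.2 RPM to 32.3, 32.8 and 32.8 RPM (log2 fold change -0.58, SE 0.13, adjusted p = 8.45e-05, edgeR), and glp-1, the germline Notch receptor for which lag-2 encodes a ligand, from 194, 188 and 190 RPM to 138, 145 and 152 RPM (-0.30, SE 0.07). Of 35 meiosis genes, 5 were higher and 3 lower, but 1 and 8 with scaling to total counts, so no direction can be given for that list. The same holds for 80 ribosomal protein genes, with 22 higher and 7 lower by TMM and 19 and 21 by total counts, although rpl-11.2 at 1.83 (SE 0.34) and rpl-3 at -0.62 (SE 0.13) were named members in opposite directions. Histone genes, many of them near-identical copies, had 14 higher and 8 lower of 54, and the linker histone his-24 with the most small RNAs did not pass (0.15). Muscle genes had 3 in each direction of 21, among them the tropomyosin gene lev-11, which went from 25.7, 25.2 and 26 RPM to 3.46, 3.27 and 4.25 RPM (-2.73, SE 0.43). Of 6 vitellogenin genes, which encode yolk proteins, vit-6 at -1.38 and vit-1 at -0.45 were lower and the others did not pass, and vit-1 lost its call in 3 alternatives.

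**Figure D3:**
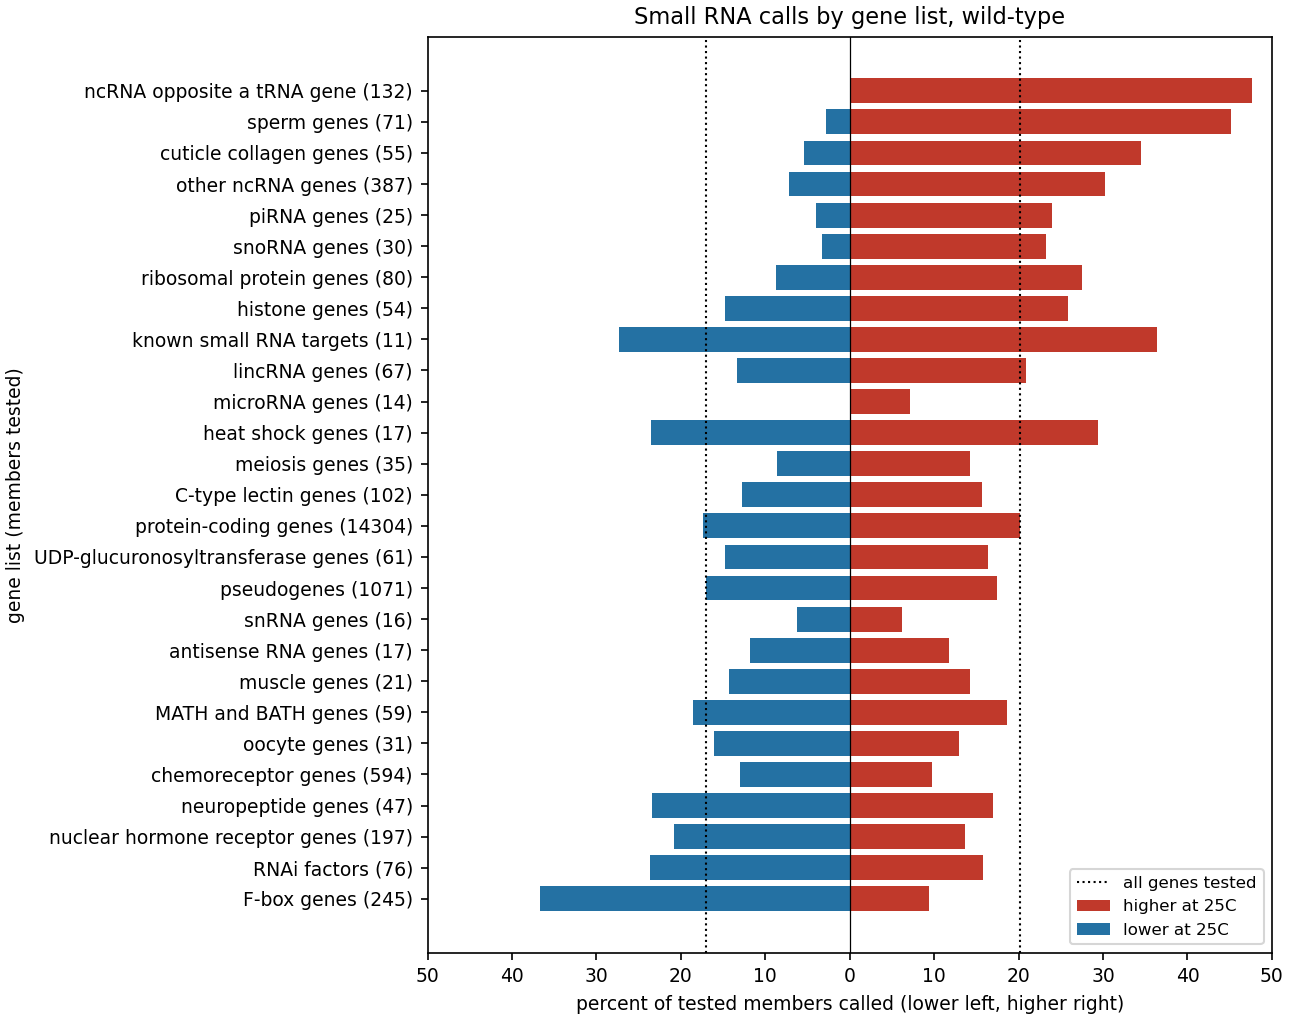
Bars give the percentage of tested members of each list that were called higher (red, to the right) or lower (blue, to the left) at 25°C in wild-type animals, and dotted lines mark 20.2% higher and 17.0% lower over all genes tested. ncRNA genes opposite a tRNA (chosen after their values were seen) and sperm genes extend farthest to the right. Known small RNA targets (11 tested) and cuticle collagen genes follow, and F-box genes extend farthest to the left.

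Small RNAs matching the genes of the RNAi machinery itself shifted modestly. Of 76 RNAi factors tested, 12 were higher (15.8%) and 18 lower (23.7%), the median was -0.06, and the summed level went from 23785 to 24571 RPM to 21638 to 22815 RPM. With scaling to total counts 10 were higher and 35 lower. Among RNA-dependent RNA polymerases, rrf-1 (-0.30) and rrf-3 (-0.33) were lower, while rrf-2, a close relative of rrf-1, went from 172, 163 and 169 RPM to 280, 296 and 319 RPM (log2 fold change 0.92, SE 0.17, adjusted p = 4.02e-06, edgeR). Their cofactors ekl-1 (0.61) and eri-5 (0.77) were higher, and the helicase gene eri-7 (-0.41) was lower. Among Argonautes, alg-3 and alg-4, which act in spermatogenesis, were higher at 1.85 (SE 0.49) and 0.91 (SE 0.25), as was wago-5 at 0.96. The microRNA Argonaute alg-1 (-0.50), alg-5 (-0.34) and nrde-3, which carries siRNAs into nuclei (-0.43), were lower. In alg-3 the levels were small, 1.56, 0.666 and 0.645 RPM at 20°C and 2.57, 3.28 and 4.6 RPM at 25°C. Of the P granule genes that passed, which act in RNA-rich bodies on germline nuclei, the lower ones were pgl-1 (-0.25), pgl-3 (-0.34), glh-1 (-0.32), glh-2 (-0.49), glh-3 (-0.20) and meg-2 (-0.54) and the higher ones deps-1 (0.30), meg-1 (0.32) and meg-4 (0.80). pgl-1 went from 640, 661 and 695 RPM to 512, 542 and 511 RPM, without overlap. Of the remaining factors that passed, the small RNA methyltransferase henn-1 (-0.65), the Mutator helicase gene smut-1 (-0.78), rde-12 (-0.51), rde-4 (-0.29), tofu-2 (-0.25) and met-2 (-0.34) were lower, and rsd-2 (0.31), tofu-6 (0.37) and set-32 (0.20) were higher. Calls were lost in 9 of 13 alternatives for tofu-2, in 8 for meg-1, in 7 for set-32, in 5 for deps-1 and nrde-3, in 5 of 12 for wago-5, in 4 for tofu-6 and in 1 for glh-3 and alg-1. The SE of the values in this paragraph that are given without it was at most 0.37.

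Loci long used as small RNA targets moved in opposite directions. Of the 11 tested, 4 were higher and 3 lower. Every one of the 3 lower genes had a higher mRNA, but so did 3 of the 4 higher genes. In all, the mRNA of 7 of the 11 was higher and that of 0 lower, with a median log2 fold change of 1.19. Over all genes tested in mRNA, 22.6% were higher and 9.78% lower. C38D9.2, on chromosome V, held 611, 675 and 638 RPM at 20°C and 1535, 1576 and 1327 RPM at 25°C. The groups did not overlap, and the log2 fold change was 1.30 (SE 0.21, adjusted p = 4.10e-08, edgeR). sosi-1, which lies opposite eri-6, went from 363, 372 and 369 RPM to 724, 692 and 640 RPM (1.00, SE 0.16, adjusted p = 1.13e-07), a 2-fold increase. F55C9.3 went from 81.9, 73.7 and 67.7 RPM to 92, 113 and 168 RPM (0.81, SE 0.20), and the sperm gene ssp-16 from 1.2, 1.84 and 1.67 RPM to 3.2, 5.45 and 3.57 RPM (1.46, SE 0.37).

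C44B11.6, on chromosome III, had 1148, 1259 and 1385 RPM at 20°C and 399, 531 and 481 RPM at 25°C, a log2 fold change of -1.33 (SE 0.33, adjusted p = 0.000533, edgeR). Its mRNA stood at 3.91, 4.63 and 3.34 RPM at 20°C and 13.7, 16.5 and 15.4 RPM at 25°C (1.93, SE 0.30, adjusted p = 3.19e-08). In both assays every library of a temperature lay on the same side of the other temperature. E01G4.5 went from 528, 380 and 332 RPM to 125, 156 and 185 RPM of small RNA (-1.33, SE 0.29) and from 4.53 to 5.51 RPM to 7.72 to 8.03 RPM of mRNA (0.63, SE 0.15). K02E2.6 had 1027, 961 and 1046 RPM against 537, 664 and 705 RPM of small RNA (-0.58, SE 0.23, adjusted p = 0.0329), with mRNA higher by 1.01 (SE 0.19), but its small RNA call was lost without replicate 3 at 20°C or replicate 1 at 25°C (adjusted p up to 0.0556). W04B5.1 came close to the threshold, with 1012, 846 and 900 RPM against 502, 572 and 770 RPM (-0.50, SE 0.21, adjusted p = 0.0520), while its mRNA went from 2 to 2.81 RPM to 14.3 to 16.3 RPM (2.78, SE 0.40). eri-6, bath-45 and F37D6.3 did not pass, at 0.20, 0.19 and -0.08.

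**Figure D4:**
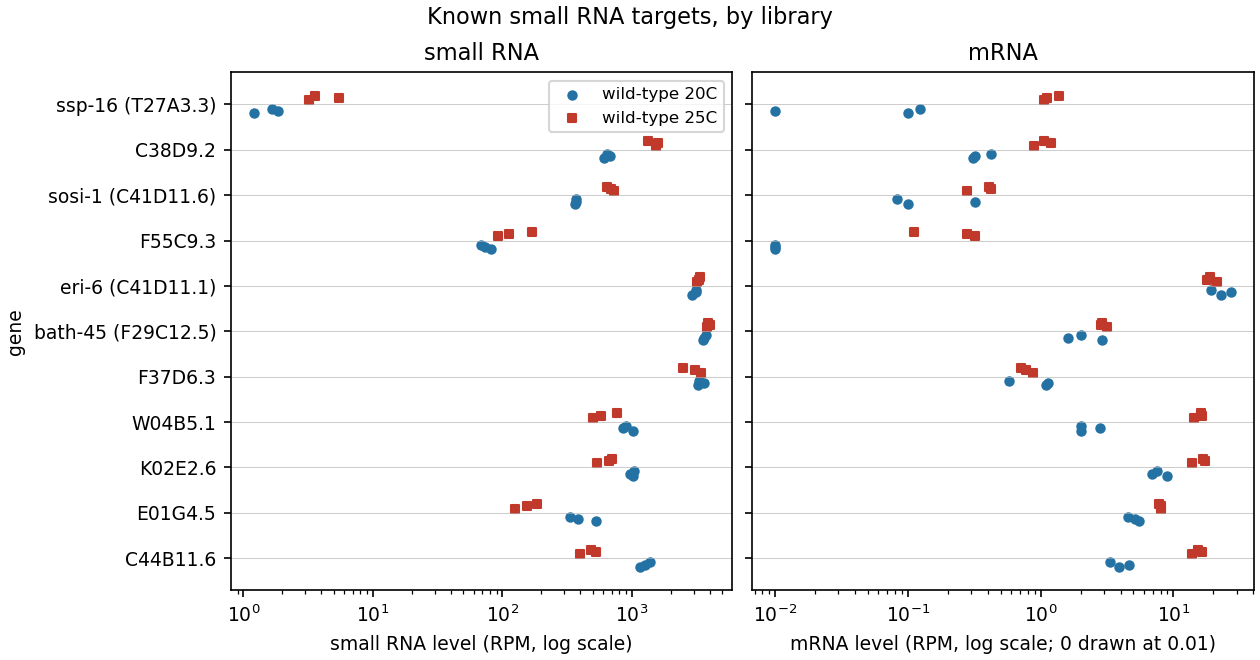
Each symbol is 1 wild-type library at 20°C (blue circles) or 25°C (red squares), with the small RNA level on the left and the mRNA level on the right in RPM on log axes, values of 0 drawn at 0.01 for mRNA. C44B11.6, E01G4.5, K02E2.6 and W04B5.1 have less small RNA (short of the threshold for W04B5.1) and more mRNA at 25°C, whereas C38D9.2 and F55C9.3 have more of both.

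Few miRNA and piRNA genes had enough counts to be tested, 14 of 258 and 25 of 15363, and the class of small RNA that arose there was not resolved by these counts. The miRNA genes together held 945.7, 461.8 and 481.2 RPM at 20°C and 1012, 797.9 and 1004 RPM at 25°C, mostly from mir-8203 (84.7% of the sum at 20°C). mir-353 alone passed, with 7.93, 7.54 and 6.47 RPM against 11.2, 10.5 and 10.9 RPM (log2 fold change 0.67, SE 0.24, adjusted p = 0.0170, edgeR), but it lies within rpl-24.1 on the same strand and lost its call in 4 alternatives. mir-58.1, of the mir-58 family, which is abundant in C. elegans, had 19.5, 25.3 and 45.8 RPM against 33.3, 65.6 and 88.2 RPM, overlapping groups that did not pass (1.09, SE 0.54, adjusted p = 0.0961). The embryonic mir-35 family, of which mir-35, mir-37 and mir-40 were tested, stayed between 2.82 and 13.4 RPM in every library, and their log2 values of 0.14, -0.08 and -0.22 did not pass. Their mature sequences are printed, with the seed (bases 2 to 8) in capitals as DNA from the RefSeq genome (WBcel235), because the 3 genes share the seed CACCGGG, which sets them apart from mir-58.1. They lie on the plus strand, mir-35 at chrII:11537668-11537689, mir-37 at chrII:11537893-11537914, mir-40 at chrII:11538239-11538260 and mir-58.1 at chrIV:3233314-3233335.
mir-35: tCACCGGGtggaaactagcagt
mir-37: tCACCGGGtgaacacttgcagt
mir-40: tCACCGGGtgtacatcagctaa
mir-58.1: tGAGATCGttcagtacggcaat

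Of the 25 piRNA loci tested, 6 were higher (24%) and 1 lower. 21ur-14040 held 1.51, 1.58 and 0.94 RPM at 20°C and 6.98, 5.9 and 2.73 RPM at 25°C (log2 fold change 2.12, SE 0.55, adjusted p = 0.000932, edgeR), and 21ur-7267, with 2, 1 and 1 counts at 20°C, had a ratio of 8.88 (95% counting interval 3.21 to 34.2). 21ur-1009 went from 8.73, 11.4 and 12.4 RPM to 5.51, 3.54 and 5.04 RPM (-1.10, SE 0.31). Each of the 3 lies within a protein-coding gene, 21ur-7267 on the strand of nkcc-1, 21ur-14040 opposite cpna-4 and 21ur-1009 opposite pkd-2, and in mut-16 mutants at 20°C their levels relative to wild-type were -3.52, -6.78 and -1.89 on the log2 scale. They are printed from WBcel235 with the first base, a T as is usual for piRNA genes, in capitals, 21ur-7267 from chrIV:14120944-14120964 (minus), 21ur-14040 from chrIV:15363541-15363561 (minus) and 21ur-1009 from chrIV:15234447-15234467 (plus).
21ur-7267: Tagtgagactgttctgaaaaa
21ur-14040: Tttcactgcactcgaactcac
21ur-1009: Tggtgttaaaatcggacgacc

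By gene class, protein-coding genes had 2885 higher and 2493 lower of 14304 tested, and pseudogenes 186 and 182 of 1071. Pseudogenes took 9.67%, 9.93% and 9.77% of the counts at 20°C and 9.18%, 9.08% and 9.09% at 25°C, and other ncRNA genes 0.478%, 0.503% and 0.483% against 0.631%, 0.586% and 0.565%. Neither pair of groups overlapped, which in an exact two-sided permutation test of 3 libraries against 3 gives the smallest possible p of 0.1 (adjusted p = 0.213 over 17 shares). Long intergenic ncRNA genes had 14 higher and 9 lower of 67. The largest loss by RPM among them was that of linc-22, from 648, 623 and 724 RPM to 101, 166 and 176 RPM (log2 fold change -2.10, SE 0.48, adjusted p = 0.000158, edgeR). Small nucleolar RNA genes had 7 higher and 1 lower of 30, spliceosomal RNA genes 1 and 1 of 16, antisense RNA genes 2 and 2 of 17, and 3 of 8 ribosomal RNA genes were higher. The count table held only 22 genes annotated as tRNA, beside 612 nuclear tRNA genes in RefSeq. It therefore cannot show how most tRNA genes themselves changed. Of the 22, 1 was tested and did not pass.

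The chromosomes differed in the share of genes called. On chromosome I, 25.5% of 2562 genes were higher and 14.9% lower, and on chromosome III 24.8% of 2370 were higher and 17% lower. On chromosome IV 22.4% of 2688 were higher and 15.3% lower, and on chromosome II 19.3% of 2828 in each direction. The order was turned on chromosome V, with 15.9% of 3484 higher and 17.2% lower, and on chromosome X, with 13.8% of 1997 higher and 18.8% lower. Chromosome II took 19.8%, 19.8% and 19.6% of the counts at 20°C and 18.7%, 18.9% and 18.9% at 25°C, and chromosome X 6.73%, 6.83% and 6.7% against 6.53%, 6.48% and 6.5%. Chromosome V went the other way, from 14.2%, 14% and 14.1% to 14.5%, 14.8% and 15%. Each of these 3 shares had groups without overlap (exact permutation p = 0.1, adjusted p = 0.213), while those of chromosomes I, III and IV overlapped. Most of the drop on chromosome X rested on few loci. Its mean difference of -0.25 percentage points was -0.0292 without the 10 most abundant genes.

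The mRNA libraries of the same groups were set beside the small RNAs to ask how a gene's transcript and its small RNAs moved. In mRNA, 3302 of 14623 genes were higher at 25°C (22.6%) and 1430 lower (9.78%). The lower count was 941 without replicate 3 at 25°C and 2317 by DESeq2. Of 12421 genes tested in both assays, 836 were higher in both, which is 31.4% of the 2661 with more small RNAs and 31.5% of the 2658 with more mRNA, beside 21.4% with more mRNA over all 12421. Another 293 were lower in both, 13% of those with fewer small RNAs. Opposite calls were found for 278 genes with fewer small RNAs and more mRNA, 12.4% of the small RNA decreases where 21.4% of all genes had more mRNA. A further 195 genes had more small RNAs and less mRNA, 7.33% of the increases where 10.4% of all genes had less. Across these genes, which are not independent replicates, Pearson's r of the log2 fold changes was 0.31 and Spearman's rho 0.24. The assays come from separate libraries of the same groups, and overlapping genes contribute to both.

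Named genes showed some of these combinations. Small RNA and mRNA both rose for the small heat shock genes, with mRNA log2 fold changes of 3.88 (SE 0.49) for hsp-16.48, 4.03 (SE 0.54) for hsp-16.1 and 4.70 (SE 0.72) for hsp-16.41. The mRNA of hsp-16.48 went from 3.86, 4.09 and 2.81 RPM to 47.4, 53.6 and 57.5 RPM. F56D2.3 (3.78, SE 0.70) and sulp-6 (2.75) also gained mRNA, as did alg-3 (2.66) and alg-4 (2.57). Y17D7B.7 had the opposite pair, since its mRNA counts went from 6.41, 4.15 and 3.76 RPM to 14.6, 17.1 and 17.3 RPM (1.77, SE 0.35, adjusted p = 1.31e-05, edgeR) as its small RNAs fell. For lag-2, F14F7.7, nipi-4 and lev-11 the mRNA did not pass (1.11, 0.25, 0.40 and -0.09). Of 63 sperm genes tested in both assays, 26 were higher in both and 26 in mRNA alone. Of 42 collagen genes, 10 were higher in both. Of 156 F-box genes, 8 had fewer small RNAs and more mRNA, 7 were lower in both, 5 were higher in both, and 42 had fewer small RNAs with no call in mRNA. These counts stand beside those of all 11899 protein-coding genes tested in both, of which 805 were higher in both and 1489 in mRNA alone. Another 256 of these had fewer small RNAs and more mRNA, 267 were lower in both, and 1609 had fewer small RNAs with no call in mRNA. The 4 spermatogenesis genes that the study followed by quantitative PCR were among those with more small RNA, while pgl-1, which it also measured so, was lower. C15H11.1 went from 0.1, 0.463 and 0.209 RPM to 2.31, 2.19 and 1.47 RPM (log2 fold change 3.07, SE 0.64). For clp-8 the levels went from 3.62, 3.43 and 3.47 RPM to 7.99, 9.38 and 9.4 RPM (1.44, SE 0.33). ssp-35 was higher by 1.38 and F57F4.1 by 1.40 (adjusted p = 0.0422, edgeR). The groups of F57F4.1 overlapped, and its call was lost in 7 alternatives.

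**Figure D5:**
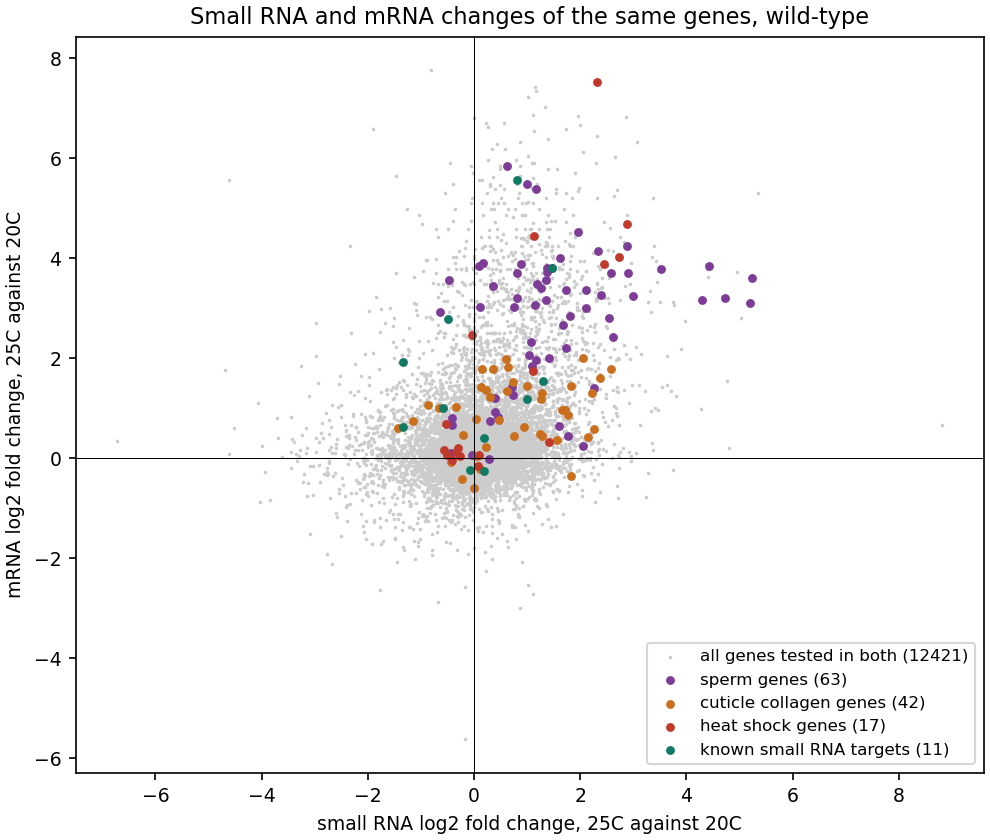
Each point is a gene tested in both assays (12421 genes), with the log2 fold change at 25°C against 20°C of its small RNAs on the horizontal axis and of its mRNA on the vertical axis; colours mark lists named in the legend. Sperm genes lie mostly in the upper right, where both are higher, and Y17D7B.7, with -4.68 and 1.77, is among the points in the upper left.

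To see which of these changes took the same size without MUT-16, the wild-type values were set beside those of the mut-16 libraries, where 1328 genes were higher at 25°C (8.29%) and 2767 lower (17.3%). The difference of the heat responses between the genotypes passed the test for 914 genes with a larger value in mut-16 (5.70%) and 2026 with a smaller one (12.6%), and these contrasts share the wild-type libraries. The smaller-value count was 899 to 1061 when any wild-type library other than replicate 3 at 25°C was left out, and the larger-value count was 1555 without that replicate. For Y17D7B.7 the decrease in wild-type had a counterpart of -2.15 in mut-16. The decreases of F52G3.3, lag-2, tag-196 and nipi-4 in wild-type had counterparts of 0.22, -0.81, -0.58 and -0.27 in mut-16. At 20°C the latter genes already had lower levels without MUT-16, at log2 values of -8.02, -7.40, -4.52 and -7.85, so a loss of the wild-type size could hardly be measured there. The increases of F56D2.3 and sulp-6 were 1.10 and 0.47 in mut-16, and those of col-71 and col-111 were 0.32 and 0.29. For hsp-16.1 the value in mut-16 was 2.57 (adjusted p = 0.00482, edgeR), while hsp-16.41 (2.52, adjusted p = 0.160) and hsp-16.48 (1.24, adjusted p = 0.241) did not pass there. All 3 genes were scarce in mut-16, at no more than 1.15 RPM in any library, and the difference from wild-type did not pass for any of them.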

How the data were processed

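Small RNAs were sequenced from whole adults, and the authors trimmed reads with Cutadapt and quantified them on the WS258 transcriptome with Salmon, with HISAT2 for the genome. The versions, strand setting and multi-mapping options are not given in the sources used here. The deposited values are estimated counts per gene (Salmon's expected counts), not normalized. Rows of the same gene name were added (46970 rows, 45904 names), and 256 names without a match in the WBcel235 annotation have no class or position. Values were rounded, and genes passing filterByExpr were fitted with edgeR 4.0.16 (R 4.3.3, TMM scaling, robust quasi-likelihood) over all 12 small RNA libraries with 1 coefficient per group. A gene was called at a Benjamini-Hochberg adjusted p under 0.05 over all genes tested. The 12 mRNA libraries were fitted likewise. Each SE was taken as the absolute log2 fold change over the normal deviate that its p-value gives. Shares of counts were compared by exact permutation (scipy 1.17.1). DESeq2 1.42.0, other scalings and filters and left-out libraries were alternatives. The fit was tested on simulated counts.

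Named genes were the 10 largest changes in each direction with at least 10 RPM and no overlap, the 5 most abundant genes, up to 3 in each direction in each of 29 lists (at least 1 RPM and no overlap), known small RNA targets, RNAi factors and miRNA genes that passed, and 4 spermatogenesis genes the study followed by quantitative PCR. Members and lists were chosen with earlier results of these data known. ncRNA genes opposite tRNA genes, and genes said to be so, were chosen after their values were seen. Intervals on counts cover counting error only.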

Additional observations from a re-analysis of the deposited data

Results flagged for a closer look

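For the genes named above, the heat response of small RNAs was compared between mut-16 mutants and wild-type animals by a test of the difference itself (edgeR's quasi-likelihood interaction contrast, Benjamini-Hochberg adjustment over all genes). The values are the log2 fold change at 25°C against 20°C in mut-16 minus that in wild-type, and each passed at an adjusted p under 0.05. The wild-type libraries enter both this difference and the wild-type values, so the 2 are not independent. Many of these genes were named for a large wild-type change, which the difference subtracts. A sign opposite to that change is therefore partly built in, for losses and gains alike.

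Genes that lost small RNAs in wild-type mostly had positive differences. Many of them were close to 0 in mut-16 at 20°C already, where a loss of the wild-type size could not be seen, which limits what the sign can show. At 20°C in mut-16, for example, fbxa-59 had 0.142, 0.115 and 0 RPM, lag-2 0.223, 0.497 and 0.198 RPM and nlp-24 0.335, 0.0993 and 0.0992 RPM. Among the largest wild-type decreases they were 2.54 for Y17D7B.7, 4.80 for B0393.8, 3.95 for tag-196, 3.25 for lag-2, 4.27 for F52G3.3, 2.13 for K01A6.6 and 3.42 for nipi-4, and for the ncRNA gene F54A3.10 the difference was 5.20. In the gene families they were 3.98 for fbxb-71, 3.63 for fbxa-59, 3.29 for fbxb-39, 0.75 for fbxb-97, 2.71 for bath-31, 3.00 for nhr-146, 3.29 for nlp-24, 2.76 for lev-11, 2.35 for msp-32 and 1.28 for vit-6. The piRNA locus 21ur-1009 had 1.52.

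Genes that gained small RNAs in wild-type mostly had negative differences. These were -4.31 for C45G7.13, -4.29 for dhcr-7, -3.29 for F56D2.3, -4.35 for Y76B12C.4 and -3.49 for sulp-6. Opposite tRNA genes they were -2.40 for F14H8.10, -2.16 for ZK678.11 and -2.09 for ZK783.8. Of the 132 such genes tested, 12 passed with a smaller and 2 with a larger difference, against 12.6% and 5.70% of all genes. In mut-16, 57 of the 132 were higher at 25°C and 3 lower, against 8.29% and 17.3% of all genes. Their median log2 fold change was 1.07 in mut-16 and 1.12 in wild-type. Sperm genes had -4.85 (ssp-9), -3.42 (msp-40), -0.755 (spe-47), -1.62 (spe-6), -1.68 (ssp-16) and -1.99 (ssp-35). Other families had -2.28 (col-162), -1.42 (col-111), -0.923 (sip-1), -2.12 (fbxa-43), -1.70 (fbxa-224), -2.54 (math-31), -3.80 (nhr-244), -9.12 (clec-193, at under 11 RPM in every wild-type library), -2.23 (nlp-40) and -2.13 (srd-70). C15H11.1 had -2.29. The exception among the gains was rpl-11.2, with 0.941.

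Of the known small RNA targets, the difference was -0.391 for C38D9.2, -2.45 for F55C9.3, -1.73 for K02E2.6 and -2.67 for W04B5.1. Of the RNAi factors it was 0.914 for smut-1, 0.333 for henn-1, 2.11 for eri-7, 0.841 for alg-1 and 0.393 for pgl-1, and -0.526 for meg-4, -0.566 for ekl-1, -0.637 for eri-5, -0.537 for tofu-2 and -0.520 for tofu-6. Y39E4B.14, which did not change in wild-type by the test, had -0.823, and the miRNA genes mir-35 and mir-37, likewise without a call in wild-type, had 1.00 and 0.799.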

How the results depend on the processing

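The counts of genes with more and with fewer small RNAs at 25°C, 3238 and 2729, stayed within 1.5 times of these values with DESeq2 (3087 and 2542), scaling to total counts (2603 and 3677) or upper quartiles (3147 and 3017), no filter on low counts (3437 and 2470) and a fit of the 6 wild-type libraries alone (2775 and 2564). The higher count was 2013 with at least 10 counts required in every library and 2149 at an adjusted p under 0.01. A log2 change of at least 1 gave 1646 and 1076, and the same condition without replicate 3 at 25°C, an alternative added after seeing the data, gave 1757 and 1325. Leaving out single wild-type libraries gave 2230 to 3569 higher and 2529 to 3403 lower genes, 942 to 1555 larger and 899 to 1887 smaller heat responses in mut-16, and 2651 to 3039 higher and 941 to 1359 lower mRNAs. DESeq2 gave 2317 lower mRNAs. The cause of these shifts was not tested. The mean share of counts on chromosomes III and IV, -0.198 and 0.305 percentage points at 25°C minus 20°C, became 0.0685 and -0.0903 without the 10 most abundant genes. In the same setting chromosome X shrank from -0.25 to -0.0292, while II was at -0.934 and V at 0.636. With single libraries left out, the share differences were 0.0439 to 0.542 for chromosome I, -0.918 to -0.793 for II, -0.307 to -0.0852 for III, -0.214 to 0.866 for IV, 0.571 to 0.819 for V and -0.275 to -0.214 for X, and 0.508 to 0.626 for protein-coding genes, -0.733 to -0.605 for pseudogenes and 0.0875 to 0.12 for other ncRNA genes. Replicate numbers were not taken as pairs, since same-numbered wild-type libraries correlated at -0.0196, 0.0819 and -0.00621, and a replicate block gave 2998 and 2529. Of 210 named genes, 161 kept call and direction under every alternative in which they were tested, 171 combinations of gene and alternative lost the call, 29 gained it and 0 turned the direction.
The 63 ncRNA genes higher opposite tRNA genes were 35 to 78 under the alternatives, the lowest with at least 10 counts in every library, and 0 to 3 were lower. Depth limits the scarce loci, since replicate 3 at 25°C had 4760502 counts, so that a count of 0 there allows up to 3 counts.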
